A study of Mus musculus with 70 samples.

Results

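The semaphorins, plexins and neuropilins are the ligands, receptors and co-receptors of 1 guidance system, and 31 of the 34677 genes of the deposited gene table belong to them by symbol. Members were taken by name (Sema3 to Sema7 with a letter, Plxna to Plxnd with a number, Nrp1 and Nrp2) and by no measured value. They are 7 secreted class 3 semaphorins, 6 class 4, 2 class 5 and 4 class 6 transmembrane semaphorins, the membrane-anchored Sema7a, 2 neuropilins, 4 A-type, 3 B-type and 2 C- and D-type plexins. All 31 had enough reads to be tested.

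The study profiled mRNA of 70 libraries in 24 groups: 57 libraries of 18 punched regions from P56 male C57BL/6NTac mice, 9 libraries of 4 regions from E14.5 embryos of the same strain, and 4 libraries of embryonic stem cells. Its stated purpose was an expression atlas of brain regions that control energy balance, and the labels give no engineered allele and no agent for any animal. The adult regions were cerebral cortex (anterior cingulate area, ACA, frontal pole, FRP, and entorhinal area, ENT), nucleus accumbens (ACB), hypothalamus (arcuate, ARH, ventromedial, VMH, dorsomedial, DMH, paraventricular, PVH, and lateral area, LHA), ventral tegmental area (VTA), hindbrain nuclei (parabrachial, PB, solitary tract, NTS, and dorsal vagal complex, DVC), cerebellar cortex (central lobule II, CENT2, culmen lobules IV-V, CUL4-5, uvula, UVU, and flocculus, FL) and cerebellar nuclei (CBN). The embryonic regions were forebrain (F), midbrain (M), hindbrain (H) and terminal and peduncular hypothalamus (THy-PHy), and the stem cells were 2 C57BL/6-derived clones (mESC_B6-1, mESC_B6-2) freed of feeder cells and held in leukemia inhibitory factor with inhibitors. Punches of several animals were pooled in each brain library, except that 1 ACB library came from a single mouse. The animals were fewer than separate pools would need, so libraries of different regions share animals, and the fits treat the libraries as independent. Samples were collected in batches that the study lists by region and not by library number, with adult, embryonic and stem cell samples in separate batches, so stage and batch cannot be told apart.

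Summed estimated counts ran from 13409041 to 20647884 in adult, from 9074581 to 22229582 in embryonic and from 12985081 to 18501667 in mESC libraries. VTA replicate 1 stood apart, with 39.6% of its TPM (a level of transcripts corrected for length and scaled to the same total in every library) on mitochondrial genes against an adult median of 7.71%. H replicate 1 had 22.6% against an embryonic median of 6.10%, and the lowest depth. Results that rest on either library are given with and without it. The region markers given here followed the labels, with Drd1 highest in ACB, Agrp in ARH, Hcrt in LHA, Slc6a3 in VTA, Pcp2 in CUL4-5 and Hoxb3 in H. Nkx2-1, listed as a hypothalamic marker, was highest in F.

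Semaphorins steer growing axons and migrating cells, mostly by repulsion, and later act on synapses, vessels, immune cells and myelinating glia. Secreted class 3 semaphorins bind a neuropilin that signals through an A-type plexin, except that Sema3e binds Plxnd1 directly. Class 4 semaphorins act mainly on B-type plexins, class 5 and class 6 on A-type plexins, and Sema7a on Plxnc1 and on integrins. Plexins carry an intracellular domain that switches off small Ras-type GTPases, which loosens adhesion and the actin skeleton.

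RefSeq promoters of GRCm38.p6 (250 bases before to 50 bases after a start) were matched for 26 members, 8 of which had more than 1, giving 37 windows. Plxna1, Plxna4, Sema3b, Sema3f and Sema6a were not matched. Printed so that they can be read beside the levels are the windows of Plxnb3, the member that differed most between stages, of Plxna3, the A-type plexin with the largest stage difference, and of Sema7a and its receptor Plxnc1, whose levels ran opposite across adult regions. Each is written 5′ to 3′ on the strand of its gene, and capitals mark matches to ACAAAG, the core that SOX factors bind, and GGGCGG, the GC box, on either strand (CTTTGT and CCGCCC are their reverse complements).
Plxnb3 (chrX:73756853-73757152, plus strand): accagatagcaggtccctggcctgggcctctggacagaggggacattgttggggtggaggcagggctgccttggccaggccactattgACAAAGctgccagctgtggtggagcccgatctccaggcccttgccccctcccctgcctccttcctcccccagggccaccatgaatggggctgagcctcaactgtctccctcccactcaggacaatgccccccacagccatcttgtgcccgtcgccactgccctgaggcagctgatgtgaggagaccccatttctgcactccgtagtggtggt
Plxna3 (chrX:74328816-74329115, plus strand): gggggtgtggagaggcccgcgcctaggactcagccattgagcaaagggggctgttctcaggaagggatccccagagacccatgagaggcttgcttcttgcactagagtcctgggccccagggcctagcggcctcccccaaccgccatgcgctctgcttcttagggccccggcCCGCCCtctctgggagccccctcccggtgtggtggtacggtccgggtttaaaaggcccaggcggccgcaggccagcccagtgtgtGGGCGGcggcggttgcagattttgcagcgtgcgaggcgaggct
Sema7a (chr9:57939862-57940161, plus strand): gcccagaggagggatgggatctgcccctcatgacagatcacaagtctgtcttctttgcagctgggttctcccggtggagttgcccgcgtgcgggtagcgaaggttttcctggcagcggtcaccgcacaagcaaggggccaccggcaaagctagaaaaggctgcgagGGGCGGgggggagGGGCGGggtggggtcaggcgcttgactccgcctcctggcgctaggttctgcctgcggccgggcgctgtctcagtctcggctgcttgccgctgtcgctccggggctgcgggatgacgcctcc
Plxnc1 (chr10:94944796-94945095, minus strand): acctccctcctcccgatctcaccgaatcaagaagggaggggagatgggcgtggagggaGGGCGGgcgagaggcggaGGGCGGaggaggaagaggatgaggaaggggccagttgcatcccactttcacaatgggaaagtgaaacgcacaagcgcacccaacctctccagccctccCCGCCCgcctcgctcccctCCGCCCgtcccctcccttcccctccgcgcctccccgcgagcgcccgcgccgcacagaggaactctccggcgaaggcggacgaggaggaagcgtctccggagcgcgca
In the Plxnb3 window 1 match to ACAAAG and none to GGGCGG was found, with 4 CpG dinucleotides. The Plxna3, Sema7a and Plxnc1 windows held 2, 2 and 4 matches to GGGCGG, no ACAAAG, and 18, 23 and 30 CpG. Over the 37 windows, GGGCGG was present in 73.0% against 35.7% of all 32851 promoters of that length, ACAAAG in 21.6% against 18.7%, and TATAAA in 0.00% against 13.6%. Median GC content was 63.7% in the members' windows and 52.7% in all, and median CpG number 15 and 7. The 3 windows of Sema4d, a ligand that was also lower in the embryo, had 3, 3 and 2 CpG. Other members called lower there had 8 (Sema3d), 11 (Sema3e), 7 (Sema4f), 6 and 29 (Sema6b) and 23 (Sema7a). The windows of Sema6c, called higher in the embryo, had 23 and 3. These are matches of letters in 1 window per start, not binding sites.

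All 31 members reached a mean of 1 TPM in at least 1 brain region, and 27 did so in all 22. By contrast 19 reached it in the mean of the mESC lines. The group with the highest mean was an adult region for 16 members, an embryonic region for 14 and an mESC line for 1, Sema4b. The same group was highest for 28 members when CPM (reads per sum of reads, not corrected for length) replaced TPM, and for 28 when VTA replicate 1 and H replicate 1 were left out. By CPM the highest group became F for Plxnb1, LHA for Sema4d and VTA for Sema6d. Among adult regions alone, Sema3a was highest in FRP by CPM and in CUL4-5 by TPM. In 10 members the libraries of the highest brain region did not overlap those of the next. For Plxna2, Plxnb2 and Sema5b among them that region was F, with 1 library. The share of all genes without such overlap was not counted, so the number cannot be set against it. Over the 18 adult regions the highest mean divided by the lowest had a median of 4.70 for the members and 2.92 for the 16328 genes compared, with a range from 1.81 for Plxna4 to 24.6 for Sema3b. In the adult brain the summed level of class 3 semaphorins averaged 45.4 TPM, of class 4 154.6, of class 5 24.1, of class 6 148.5 and of Sema7a alone 88.7. The class 4 sum leaves out the transcript Sema4d-204 (described with the transcripts), which averaged 37.7 TPM over the adult libraries. Neuropilins summed to 27.3 TPM, A-type plexins to 112.8, B-type to 98.1 and C- and D-type to 58.2.

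**Figure D1:**
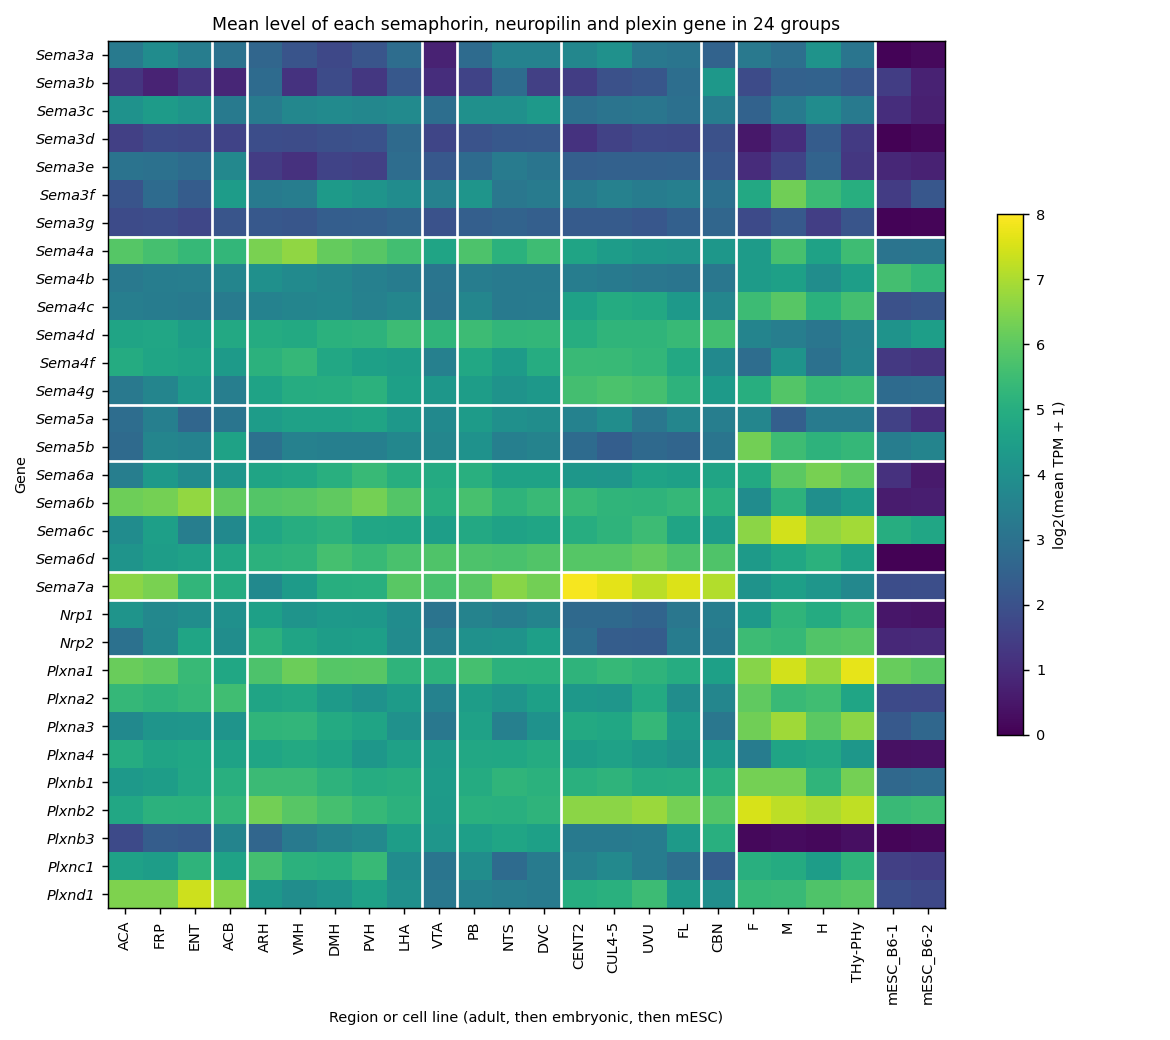
Mean level of each of the 31 genes (rows, grouped by class with white lines) in the 24 groups (columns, grouped by part of the brain), as log2(mean TPM + 1) in colour. Plxnb3 is dark in all 4 embryonic regions, Sema7a is brightest in cerebellar cortex at up to 235 TPM in CENT2, and the mESC columns are dark for most genes apart from Plxna1, Sema4b and Plxnb2.

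Lowest levels below are those among the 22 brain regions by TPM. By CPM the lowest adult region was another for some members, such as ACB for Plxna1, Sema3b and Sema6c and CUL4-5 for Sema4a. The secreted class 3 semaphorins had mostly low levels and different regions of highest expression. Sema3a, the ligand that collapses growth cones through Nrp1, was highest in H (16.2 ± 6.04 TPM, SD, n = 3) and next in CUL4-5 (15.4 ± 0.517 TPM, SD, n = 4), whose libraries overlapped. It was lowest of the brain regions in VTA, with 1.09, 0.449 and 0.581 TPM in the 3 libraries, below every other adult library. Sema3b was highest in CBN (30.9, 9.98 and 13.5 TPM) and lowest in FRP (0.737 ± 0.354 TPM, SD, n = 3). Sema3c was highest in FRP (19.9 ± 7.23 TPM, SD, n = 3) and DVC, which overlapped, and lowest in F (4.66 TPM, 1 library). Sema3d was highest in LHA (5.83 ± 0.202 TPM, SD, n = 3), although H replicate 1 alone exceeded it at 7.53 TPM, and lowest in F (0.422 TPM). Sema3e, the ligand of Plxnd1, was highest in ACB (12.3 ± 2.85 TPM, SD, n = 3), next in NTS (9.08 ± 1.22 TPM, SD, n = 4) with overlap, and lowest in F (1.04 TPM), with VMH (1.22 ± 0.174 TPM, SD, n = 2) the lowest adult region. Sema3f, which acts through Nrp2, was highest in M (76.6 ± 5.69 TPM, SD, n = 2), apart from all H libraries, and lowest in ACA (3.25 ± 0.374 TPM, SD, n = 3). Sema3g, known from vessels, was highest in CBN (5.30 ± 0.0919 TPM, SD, n = 3) and lowest in H (1.82 ± 1.08 TPM, SD, n = 3), or in ENT (2.23 TPM) without H replicate 1.

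Class 4 semaphorins split between adult hypothalamus, cerebellum, embryo and stem cells. Sema4a, a ligand also used by immune cells, was highest in VMH (102 ± 11.1 TPM, SD, n = 2), apart from ARH (82.2 ± 3.90 TPM, SD, n = 3), and lowest in FL (16.9 ± 5.22 TPM, SD, n = 4). Sema4b was highest in mESC_B6-1 (47.5 ± 0.630 TPM, SD, n = 2), with M the highest brain region (22.4 ± 1.77 TPM, SD, n = 2) and VTA the lowest (7.59 ± 3.34 TPM, SD, n = 3). Sema4c, a ligand of Plxnb2, was highest in M (59.6 ± 4.37 TPM, SD, n = 2) and lowest in VTA (7.41 ± 4.07 TPM, SD, n = 3). Sema4d, a ligand of Plxnb1 known from oligodendrocytes and lymphocytes, was highest in CBN (47.1 ± 12.9 TPM, SD, n = 3) and LHA, which overlapped, and lowest in H (7.84 ± 3.69 TPM, SD, n = 3). Without VTA replicate 1 its highest mean moved to VTA (48.3 TPM), and without H replicate 1 its lowest to M (9.70 TPM). These TPM lack the transcript Sema4d-204 (described with the transcripts), and with it added neither move occurred. CBN then averaged 98.7 TPM, against 72.0 and 118 TPM in the VTA libraries other than replicate 1. The H libraries other than replicate 1 then had 12.3 and 13.1 TPM, below all libraries of M, F and THy-PHy. The lowest region became FL for Sema4b (7.72 TPM) and NTS for Sema4c (8.59 TPM) without VTA replicate 1. Sema4f was highest in CENT2 (41.8 ± 3.13 TPM, SD, n = 4) and lowest in F (6.28 TPM). Sema4g was highest in M (56.8 ± 4.19 TPM, SD, n = 2), overlapping CUL4-5 (52.1 ± 4.70 TPM, SD, n = 4), and lowest in ACA (8.32 ± 0.592 TPM, SD, n = 3).

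The class 5 members, whose extracellular part carries thrombospondin repeats, had opposite stages of highest level. Sema5a was highest in PVH (24.8 ± 1.47 TPM, SD, n = 2) and lowest in M (4.36 ± 0.621 TPM, SD, n = 2), whereas Sema5b was highest in F (77.6 TPM) and lowest in CUL4-5 (4.29 ± 0.486 TPM, SD, n = 4). Of class 6, transmembrane ligands that can also act as receptors, Sema6a was highest in H (81.3 ± 17.1 TPM, SD, n = 3) and lowest in ACA (9.77 ± 1.54 TPM, SD, n = 3), and Sema6c highest in M (176 ± 29.8 TPM, SD, n = 2) and lowest in ENT (9.73 ± 2.46 TPM, SD, n = 3). Sema6b was highest in ENT (103 ± 15.1 TPM, SD, n = 3) and lowest in F (13.96 TPM). Sema6d was highest in UVU (67.1 ± 3.75 TPM, SD, n = 3), overlapping CENT2, and lowest of the brain regions in ACA (16.6 ± 1.51 TPM, SD, n = 3). Sema7a, which promotes axon growth and binds Plxnc1, had the widest span in TPM, from 16.9, 8.84 and 11.6 TPM in THy-PHy and 13.9, 12.6 and 12.6 TPM in ARH to 186, 226, 266 and 263 TPM in CENT2. Its CENT2 and CUL4-5 libraries (198, 197, 209 and 211 TPM) overlapped each other, and FL overlapped CENT2 as well.

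Neuropilins and most plexins were highest in the embryo. Nrp1 was highest in THy-PHy (40.4 ± 2.06 TPM, SD, n = 3), overlapping M, and lowest in UVU (5.00 ± 1.31 TPM, SD, n = 3), and Nrp2 likewise in THy-PHy (60.1 ± 7.54 TPM, SD, n = 3), overlapping H, and UVU (4.06 ± 1.43 TPM, SD, n = 3). Without VTA replicate 1 and H replicate 1 the highest mean of Nrp2 moved to H (62.9 TPM). Plxna1 was highest in THy-PHy (206 ± 39.6 TPM, SD, n = 3) and lowest in CBN (22.3 ± 7.28 TPM, SD, n = 3). Plxna2 was highest in F (65.3 TPM) and lowest in VTA (10.7 ± 3.57 TPM, SD, n = 3). Plxna3 was highest in M (115 and 115 TPM) and lowest in CBN (5.76, 8.44 and 9.77 TPM), with VMH, ARH and UVU, at 36.5 to 38.8 TPM, the highest adult means. Plxna4 was the most even member of the adult brain, highest in ACA (29.7 ± 2.94 TPM, SD, n = 3) and lowest in F (9.28 TPM). Without both libraries its highest mean moved to H (29.9 TPM). Plxnb1 was highest in THy-PHy (79.3 ± 24.4 TPM, SD, n = 3) and lowest in ACA (18.7 ± 0.940 TPM, SD, n = 3), and Plxnb2 highest in F (183.4 TPM) and lowest in VTA (19.5 ± 7.20 TPM, SD, n = 3). Plxnb3 was highest in CBN (26.7, 35.2 and 35.0 TPM), above all NTS libraries (23.7, 26.0, 26.4 and 25.0 TPM), and lowest in F (0.121 TPM). Plxnc1 was highest in ARH (47.5, 43.9 and 51.4 TPM), overlapping PVH (35.9 and 45.3 TPM), and lowest of the brain regions in CBN (3.52, 4.10 and 4.96 TPM). Plxnd1 was highest in ENT (182, 133 and 183 TPM), above every ACB library (126, 97.5 and 52.6 TPM), and lowest in VTA (2.77, 14.8 and 6.83 TPM). VTA was the lowest adult region for 9 members by TPM, for 5 by CPM and for 2 without VTA replicate 1. Without it the lowest brain region was CBN for Plxna2 (11.9 TPM) and DVC for Plxnd1 (9.05 TPM).

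The comparison of the 4 embryonic with the 18 adult regions asked which members differed by stage, each region weighing equally. A member was called at an adjusted p under 0.05 (edgeR quasi-likelihood test, Benjamini-Hochberg over 19980 genes) with an absolute log2 fold change above 1. Of the 11 receptors Nrp1, Nrp2, Plxna1, Plxna3 and Plxnb2 were higher in the embryo and Plxnb3 was lower, and of the 20 ligands 5 were higher and 6, Sema4d and Sema7a among them, lower. In all, 10 members were called higher and 7 lower, where 17.8% of all genes tested were called higher and 19.9% lower. The median log2 fold change was 0.82 for the members and 0.00 for all genes. Of the ligands, 1 of 7 class 3, 1 of 6 class 4, 1 of 2 class 5 and 2 of 4 class 6 members were called higher, and 2, 2, 0 and 1 lower, with Sema7a lower. Both neuropilins, 2 of 4 A-type plexins and 1 of 3 B-type plexins were called higher and 1 B-type plexin lower, and the C- and D-type plexins had no call. Plxnb1 was not called (log2 fold change 0.95), but was called higher without H replicate 1 (1.01, adjusted p = 2.5e-26).

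Sema5b, the class 5 ligand, had 30.8 to 77.6 (median 39.7) TPM in embryonic and 3.69 to 25.4 (median 8.79) TPM in adult libraries. Every embryonic library was above every adult one, at log2 fold change 2.30, SE 0.07, adjusted p = 5.5e-33. Sema6c had 41.5 to 197 (median 118) against 5.72 to 47.8 (median 25.7) TPM, with overlap only through H replicate 1 (log2 fold change 2.13, SE 0.09, adjusted p = 8.3e-28). Plxna3, a co-receptor for class 3 ligands, had 32.5 to 116 (median 85.6) against 4.37 to 43.0 (median 19.5) TPM (log2 fold change 2.03, SE 0.07, adjusted p = 4.4e-31). Nrp2 rose with it, from an adult median of 13.6 to an embryonic median of 52.02 TPM (log2 fold change 1.89, SE 0.11, adjusted p = 1.6e-21). Sema3f, its ligand, had 27.5 to 80.6 (median 33.6) against 2.46 to 23.7 (median 9.31) TPM, with no overlap (log2 fold change 1.88, SE 0.12, adjusted p = 1.1e-20). The other members called higher were Sema4c (log2 fold change 1.68), Plxna1 (1.60), Plxnb2 (1.58), Nrp1 (1.38) and Sema6a (1.25), each with overlapping libraries.

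Plxnb3, a B-type plexin, had 0.0952 to 0.375 (median 0.143) TPM in embryonic and 2.35 to 35.2 (median 10.9) TPM in adult libraries. All 9 embryonic libraries lay below all 57 adult ones, at log2 fold change -6.16, SE 0.17, adjusted p = 5.2e-36, the largest difference of any member. Sema4d had 3.58 to 11.6 (median 10.7) against 12.2 to 64.1 (median 33.0) TPM and likewise did not overlap (log2 fold change -2.07, SE 0.07, adjusted p = 2.2e-31). Summed TPM of the 9 oligodendrocyte markers was 22.0 to 59.9 in embryonic and 674.2 to 18946 in adult libraries, with 6 of the 9 at an embryonic mean of at least 1 TPM and none at 0 throughout. Its part in both differences was not tested, and in bulk tissue fewer cells of a type and less RNA per cell cannot be told apart. Sema7a had 8.18 to 29.1 (median 16.3) against 12.6 to 266 (median 82.3) TPM, where the highest embryonic libraries reached the adult hypothalamus and ACB (log2 fold change -2.04, SE 0.13, adjusted p = 1.2e-20). Sema4f (log2 fold change -1.64, SE 0.11, adjusted p = 4.0e-19) and Sema6b (log2 fold change -1.45, SE 0.10, adjusted p = 1.6e-18) were also lower. Sema3d (log2 fold change -1.23) and Sema3e (-1.18) were called lower only with the single F library, and stood at -0.60 and -0.84 without it. Progenitor markers summed to 345.4 to 1529 TPM in embryonic and 28.7 to 242.8 in adult libraries, and meningeal fibroblast markers to 381.4 to 2061 and 24.5 to 361.5. Their part in the members that were higher in the embryo was not tested.

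Of the co-receptors fixed as a list (L1cam, Kdr, Met and others), 5 of 14 were higher and 3 lower, and of the cytosolic effectors 5 of 32 were higher and 4 lower. Dpysl3 (log2 fold change 4.31, SE 0.08, adjusted p = 9.5e-44) and Dpysl5 (log2 fold change 3.31, SE 0.08, adjusted p = 9.9e-39), collapsin response mediator proteins that relay Sema3a signals to microtubules, were higher in every embryonic than in every adult library. Mical2, an actin-oxidising enzyme of the family downstream of plexins, was lower in every one (log2 fold change -4.45, SE 0.11, adjusted p = 2.9e-37).

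**Figure D2:**
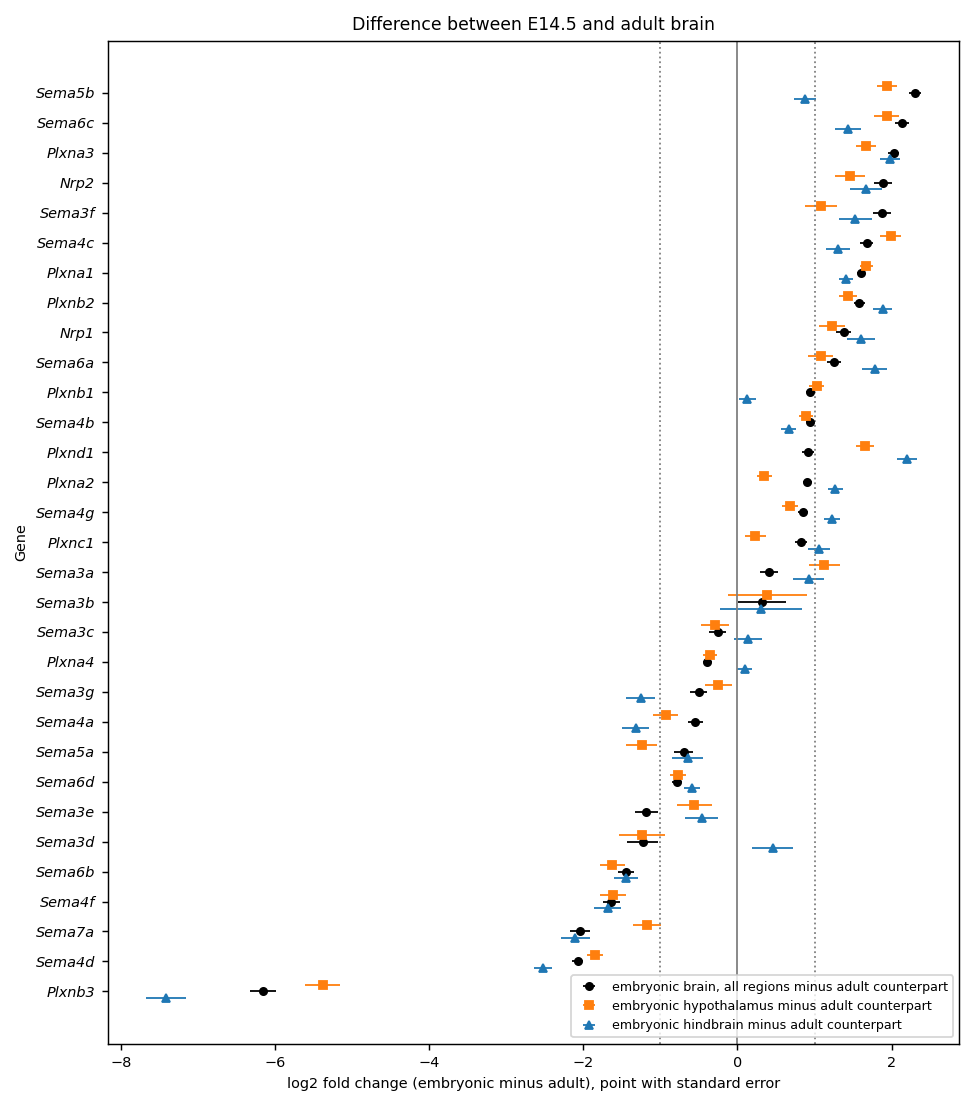
Log2 fold change of each of the 31 genes between embryonic and adult brain (circles), embryonic and adult hypothalamus (squares) and embryonic hindbrain and adult hindbrain nuclei (triangles), with standard errors and dotted lines at an absolute change of 1. Plxnb3 stands at -6.16 in the comparison of all regions, and Sema5b at 2.30.

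Within the hypothalamus the embryo was compared with its adult counterpart (THy-PHy, 3 libraries, against 14), and 20 members were called where 38.2% of all genes were, 13 of them higher (18.2% of all genes) and 7 lower. Plxna1 had 199, 249 and 171 TPM in THy-PHy against 32.4 to 75.6 (median 54.5) TPM in the adult (log2 fold change 1.67, SE 0.09, adjusted p = 2.5e-23). Sema4c (log2 fold change 1.99, SE 0.14, adjusted p = 2.1e-18), Sema5b (log2 fold change 1.94, SE 0.13, adjusted p = 1.2e-18), Sema6c (log2 fold change 1.94, SE 0.16, adjusted p = 1.0e-15) and Plxna3 (log2 fold change 1.67, SE 0.13, adjusted p = 7.1e-17) were the others with the largest increases, and no THy-PHy library of the 5 overlapped an adult one. Plxnb3 (log2 fold change -5.38, SE 0.22, adjusted p = 1.7e-27), Sema4d (log2 fold change -1.85, SE 0.11, adjusted p = 9.9e-22), Sema6b (log2 fold change -1.62, SE 0.16, adjusted p = 3.3e-13) and Sema4f (log2 fold change -1.62, SE 0.17, adjusted p = 3.4e-12) fell without overlap, and so did Sema5a (log2 fold change -1.24). Plxnb1 (1.03), Sema3a (1.13), Sema3f (1.09) and Sema6a (1.08) were called higher but fell to 0.96, 0.99, 0.97 and 0.97 without THy-PHy replicate 1 or 2. Of the co-receptors 6 of 14 were higher and 3 lower, and of the effectors 6 of 32 and 3.

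In the hindbrain (H, 3 libraries, against 10 of PB, NTS and DVC) 13 members were called higher and 7 lower, at 23.0% and 21.1% of all genes, and 15 higher and 7 lower without H replicate 1. Both shares are those of the fit with all libraries. Plxnd1, which was not called over all regions, had 51.4, 47.1 and 63.8 TPM in H against 6.63 to 13.1 (median 9.76) TPM in the adult (log2 fold change 2.20, SE 0.13, adjusted p = 7.2e-22). Plxna3 (log2 fold change 1.98, SE 0.13, adjusted p = 8.1e-19), Plxnb2 (log2 fold change 1.88, SE 0.13, adjusted p = 4.9e-19), Sema6a (log2 fold change 1.78, SE 0.16, adjusted p = 4.0e-14) and Nrp2 (log2 fold change 1.67, SE 0.21, adjusted p = 4.1e-10) also rose, with no overlap between stages. Plxnb3 (log2 fold change -7.41, SE 0.25, adjusted p = 6.8e-31), Sema4d (log2 fold change -2.52, SE 0.11, adjusted p = 5.2e-26), Sema7a (log2 fold change -2.10, SE 0.19, adjusted p = 3.8e-14), Sema4f (log2 fold change -1.68, SE 0.18, adjusted p = 2.9e-12) and Sema6b (log2 fold change -1.45, SE 0.16, adjusted p = 1.8e-11) fell without overlap. Sema3g was called lower at -1.26 and stood at -0.96 without H replicate 1, while Sema3a (1.04), Sema5a (-1.24) and Sema5b (1.06) were called in addition. Plxnc1 (1.06) and Sema4g (1.23) stood at 0.93 and 0.99 without H replicate 2. Sema3b, which was not called, moved from 0.31 to 1.10 without NTS replicate 1. Of the co-receptors 6 of 14 were higher and 2 lower, and of the effectors 7 of 32 and 7.

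The difference between both stage contrasts, tested in the same fit, was called for 4 members: 3 had a more positive stage contrast in the hypothalamus (3.46% of all genes) and 1 in the hindbrain (6.38%). Plxnb3 fell less in the hypothalamus (log2 fold change 2.03, SE 0.42, adjusted p = 2.1e-04), where adult libraries had 4.39 to 22.2 (median 10.4) TPM against 19.2 to 26.4 (median 23.8) TPM in the hindbrain nuclei. Its embryonic level was near the floor, with a mean of 0.129 TPM in H. Without THy-PHy replicate 3 the Plxnb3 difference was 1.56. Sema5b rose more in the hypothalamus (log2 fold change 1.06, SE 0.21, adjusted p = 1.4e-04) and Sema3g fell less there (log2 fold change 1.01, SE 0.25, adjusted p = 0.0017). Sema3d had 7.53, 1.45 and 3.17 TPM in H and 1.49, 1.61 and 1.53 TPM in THy-PHy (log2 fold change -1.69, SE 0.40, adjusted p = 9.3e-04). Without H replicate 1 the Plxnb3 difference was 2.06 (adjusted p = 0.00091), while Sema5b (0.88), Sema3g (0.72) and Sema3d (-0.58) were not called and Plxna2 was (-1.05, adjusted p = 1.0e-06). Sema3g also fell under the threshold without several other single libraries, and Sema5b (0.84) without THy-PHy replicate 1. With limma on log2(TPM + 0.5) Plxnb3 kept its call (1.36, adjusted p = 0.00011), and Sema5b (0.44), Sema3g (0.99) and Sema3d (-0.87) did not. That fit also called Plxnb1 and Sema7a, both with a more positive stage contrast in the hypothalamus.

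Embryonic stem cells, which hold no nervous tissue, had lower levels of most members. Against the embryonic brain 26 members were called lower and 2 higher, where 29.0% and 26.8% of all genes were, and the median log2 fold change was -3.34. Sema6d had 0.0503 and 0.0260 (mESC_B6-1) and 0.0268 and 0.0521 (mESC_B6-2) TPM in the mESC libraries, 7 estimated counts in all, against 19.6 to 39.6 (median 23.8) TPM (log2 fold change -9.48, SE 0.21, adjusted p = 1.0e-39). Sema3a (log2 fold change -6.69, SE 0.37, adjusted p = 1.1e-22) rested on 15 estimated counts in mESC and stood at -9.40 without mESC_B6-2 replicate 1. Sema6a (log2 fold change -6.06, SE 0.25, adjusted p = 4.5e-28), Nrp1 (log2 fold change -5.97, SE 0.29, adjusted p = 2.4e-25) and Plxna4 (log2 fold change -5.52, SE 0.13, adjusted p = 7.2e-39) were the other largest decreases. Sema4b was higher in all 4 mESC libraries, with 47.0 and 47.9 (mESC_B6-1) and 38.4 and 38.8 (mESC_B6-2) TPM against 7.82 to 23.7 (median 19.98) TPM (log2 fold change 1.55, SE 0.09, adjusted p = 1.8e-22). Sema4d was the other, with 16.4 and 16.2 (mESC_B6-1) and 20.7 and 22.0 (mESC_B6-2) against 3.58 to 11.6 (median 10.7) TPM (log2 fold change 1.15, SE 0.09, adjusted p = 6.3e-17), but at 0.92 was not called with limma on log2(TPM + 0.5), a TPM that lacks the transcript Sema4d-204 (described with the transcripts). With that transcript added, Sema4d had 16.3 to 22.3 TPM in mESC and a median of 14.6 TPM in embryonic libraries, some of which reached the mESC values. Plxna1 was not called and had 70.1 and 68.3 (mESC_B6-1) and 63.4 and 59.5 (mESC_B6-2) TPM. Of the co-receptors 9 of 14 were lower and 1 higher, and 19 of 32 effectors lower and 2 higher. Scaling moved the median of all genes here by 0.15 with DESeq2 size factors and by -0.23 on log2(TPM + 0.5).

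Within the adult brain each part was compared with the mean of all other adult regions, and these comparisons share libraries. In cerebral cortex 4 members were called higher and 5 lower, at 8.17% and 7.95% of all genes. Plxnd1 had 62.0 to 183 (median 103) TPM in the 9 cortical libraries (log2 fold change 2.66, SE 0.06, adjusted p = 3.8e-38), above all others except those of ACB. Plxna2 (log2 fold change 1.07, SE 0.05, adjusted p = 8.8e-24), Sema3a (log2 fold change 1.07, SE 0.11, adjusted p = 3.0e-12) and Plxnc1 (log2 fold change 1.00, SE 0.08, adjusted p = 5.1e-17) were also higher. Plxnb3 had 2.35 to 4.85 (median 3.40) TPM (log2 fold change -1.89, SE 0.09, adjusted p = 1.5e-25), with only a few other adult libraries as low, and oligodendrocyte markers summed there to 674.2 to 2246 TPM. The 4 other decreases were Sema3f (log2 fold change -1.30, SE 0.15, adjusted p = 1.0e-10), Sema6d (log2 fold change -1.19, SE 0.06, adjusted p = 2.7e-23), Sema3b (log2 fold change -1.15, SE 0.34, adjusted p = 0.0031) and Sema5a (log2 fold change -1.002, SE 0.12, adjusted p = 8.8e-11). Plxnc1 and Sema5a lay at the fold threshold and lost their call without VTA replicate 1 with all steps repeated. Sema4g (-0.996, not called) was called lower in that fit. With single libraries left out, Plxnc1 lost its call for any of 23 libraries and Sema5a for any of 31. Sema3a (0.97) lost its call without ENT replicate 1 and Sema3b (-0.99) without NTS replicate 1. On log2(TPM + 0.5) with limma 1 member was higher and 5 lower, and Plxna2 (0.95), Sema3a (0.79), Plxnc1 (0.86) and Sema3b (-0.96) were not called. Shares of all genes, here and in the other adult comparisons, are those of the edgeR fit. Among co-receptors 3 of 14 were higher and none of the 14 was called lower, among effectors 2 of 32 higher and 1 lower, and Met, the receptor of hepatocyte growth factor that couples to B-type plexins, differed most (log2 fold change 3.10, SE 0.20, adjusted p = 1.5e-19).

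In ACB 5 members were called higher and 3 lower, at 7.30% and 5.49% of all genes. Sema5b had 25.4, 24.2 and 20.6 TPM, above every other adult library (log2 fold change 1.57, SE 0.12, adjusted p = 3.1e-16). The ligand Sema3e (11.1, 15.6 and 10.2 TPM) and its receptor Plxnd1 (126, 97.5 and 52.6 TPM) were both higher (log2 fold change 1.44, SE 0.16, adjusted p = 9.9e-11 and log2 fold change 2.01, SE 0.10, adjusted p = 4.6e-24). Sema3f (log2 fold change 1.29, SE 0.19, adjusted p = 7.9e-08) and Plxna2 (log2 fold change 1.11, SE 0.08, adjusted p = 2.9e-16) were higher too. Sema3b (log2 fold change -2.08, SE 0.63, adjusted p = 0.006), Sema4g (log2 fold change -1.28, SE 0.12, adjusted p = 3.0e-13) and Sema7a (log2 fold change -1.19, SE 0.17, adjusted p = 4.1e-08) were lower, the last pair within the range of other regions and Sema3b (1.11, 0.353 and 1.03 TPM) nearly so. No co-receptor was called higher and 1 of 14 lower, no effector higher and 3 of 32 lower, with Rhod, a small GTPase, at log2 fold change -2.38, SE 0.36, adjusted p = 2.7e-07 and 14 estimated counts in ACB.

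In the hypothalamus (14 libraries) 2 members were called higher and 3 lower, at 6.11% and 2.74% of all genes. Plxnc1 had 13.3 to 51.4 (median 34.9) TPM (log2 fold change 1.34, SE 0.07, adjusted p = 7.1e-24), but its LHA libraries (13.4, 14.51 and 13.3 TPM) lay below those of every other hypothalamic region. Sema4a, at 43.6 to 109.7 (median 69.2) TPM, was the other (log2 fold change 1.11, SE 0.07, adjusted p = 1.8e-19). Sema7a had 12.6 to 64.7 (median 28.6) TPM (log2 fold change -1.83, SE 0.09, adjusted p = 1.9e-23), with LHA (64.7, 63.7 and 53.8 TPM) above the other nuclei. Sema3e showed the same split, at 7.60, 6.41 and 4.65 TPM in LHA and 1.10 to 2.20 TPM in the other nuclei (log2 fold change -1.4999, SE 0.11, adjusted p = 2.1e-16). Sema3a was lower as well (log2 fold change -1.17, SE 0.11, adjusted p = 9.5e-13). Nrp2 lay at the fold threshold (log2 fold change 1.00, not called) and was called without VTA replicate 1 with all steps repeated. With single libraries left out it was called for any of 22. On log2(TPM + 0.5) 4 members were higher and 2 lower, and Sema3a (-0.89) was not called. Of the co-receptors 1 of 14 was called, lower, and of the effectors 1 of 32, the lower Rhod (log2 fold change -1.44, SE 0.16, adjusted p = 1.1e-10).

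In VTA 1 member was called higher and 3 lower, at 6.89% and 3.65% of all genes. Sema3a had 1.09, 0.449 and 0.581 TPM (log2 fold change -2.57, SE 0.26, adjusted p = 1.6e-11), below every other adult library, and stood at -3.58 without VTA replicate 1. Plxnd1 was lower (log2 fold change -1.56, SE 0.15, adjusted p = 1.0e-12), at -1.53 without that library. Plxnb3 had 6.23, 24.4 and 21.8 TPM and was higher (log2 fold change 1.03, SE 0.11, adjusted p = 2.5e-11), at 1.27 without it but at 0.89 without VTA replicate 2. The Plxnb3 call was lost without VTA replicate 2 and also without VTA replicate 3. Oligodendrocyte markers summed to 7887, 15230 and 15760 TPM in the 3 libraries. Sema4f (2.90, 17.5 and 9.85 TPM) was called lower (log2 fold change -1.02, SE 0.15, adjusted p = 2.9e-07) but not without VTA replicate 1 (-0.71). On log2(TPM + 0.5) 7 were called, all lower, and Plxnb3 (0.46) was not, with the median of all genes moved by -0.40. The share of all genes called lower in that fit is not given here, so the 7 cannot be set against it. Of the co-receptors 1 of 14, Cd72, the lymphocyte receptor of Sema4d, was lower on 11 estimated counts in VTA (log2 fold change -1.58, SE 0.62, adjusted p = 0.037), and of the effectors 1 of 32 was lower.

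In the hindbrain nuclei 1 member was called higher and 1 lower, at 5.17% and 2.67% of all genes. Plxnb3 had 19.2 to 26.4 (median 23.8) TPM (log2 fold change 1.33, SE 0.06, adjusted p = 1.2e-23) and Plxnd1 6.63 to 13.1 (median 9.76) TPM (log2 fold change -1.49, SE 0.08, adjusted p = 2.0e-21). Oligodendrocyte markers summed there to 10531 to 15867 TPM. Of the co-receptors 1 of 14 was higher, and of the effectors 1 of 32 was higher and 1 lower, with Limk1, a kinase that inactivates cofilin, at log2 fold change 1.63, SE 0.07, adjusted p = 3.4e-25.

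In the cerebellar cortex (15 libraries) 4 members were called higher and 6 lower, at 8.21% and 9.75% of all genes. Sema7a had 138 to 266 (median 198) TPM (log2 fold change 1.81, SE 0.07, adjusted p = 9.3e-29) and overlapped only CBN. The ligand Sema4c (log2 fold change 1.11, SE 0.07, adjusted p = 9.1e-20) and its receptor Plxnb2 (log2 fold change 1.10, SE 0.06, adjusted p = 1.6e-22) were both higher, at 14.1 to 32.1 (median 24.4) and 54.7 to 117 (median 94.4) TPM, as was Sema4g (log2 fold change 1.13, SE 0.05, adjusted p = 2.6e-26). Both neuropilins were lower: Nrp2 had 2.99 to 12.8 (median 5.02) TPM (log2 fold change -1.68, SE 0.12, adjusted p = 3.5e-18) and Nrp1 3.30 to 8.68 (median 6.03) TPM (log2 fold change -1.32, SE 0.10, adjusted p = 7.5e-17). Sema4a (log2 fold change -1.54, SE 0.08, adjusted p = 1.6e-23), Sema5b (log2 fold change -1.24, SE 0.08, adjusted p = 1.5e-19), Sema3c (log2 fold change -1.20, SE 0.09, adjusted p = 4.9e-17) and Plxnc1 (log2 fold change -1.07) were lower too. On log2(TPM + 0.5) 4 members were higher and 3 lower, and Sema5b (-0.96), Sema3c (-0.81) and Plxnc1 were not called. Progenitor markers, which include Pax6, a gene also known from cerebellar granule cells, summed to 155.4 to 242.8 TPM in the cerebellar cortex and to 28.7 to 140.8 in other adult parts, and their part in Sema4c and Plxnb2 was not tested. No co-receptor was called higher and 3 of 14 lower, 3 of 32 effectors higher and 4 lower, with Met at log2 fold change -3.24, SE 0.28, adjusted p = 2.8e-15.

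In the cerebellar nuclei 3 members were called higher and 2 lower, at 7.86% and 2.88% of all genes. Plxnb3 had 26.7, 35.2 and 35.0 TPM, above every other adult library (log2 fold change 1.73, SE 0.10, adjusted p = 2.7e-20), where oligodendrocyte markers summed to 11535 to 18946 TPM. Sema3b had 30.9, 9.98 and 13.5 TPM (log2 fold change 3.26, SE 0.34, adjusted p = 2.2e-11), and 2.61 without CBN replicate 1. Choroid plexus markers summed to 12691, 3529 and 5395 TPM in these 3 libraries, and to 10668 TPM in NTS replicate 1, where Sema3b had 19.1 TPM against 0.879 to 3.47 in the other NTS libraries. The sums were 0.897 to 10.7 TPM in cerebral cortex and 18.3 to 19.7 in ACB, where Sema3b was called lower and Folr1, 1 of the 5 markers, was at 0 in ACB. Their part in the Sema3b results was not tested. Sema7a was higher (log2 fold change 1.16, SE 0.13, adjusted p = 2.2e-10), and Plxnc1 (log2 fold change -2.03, SE 0.16, adjusted p = 5.4e-15) and Plxna3 (log2 fold change -1.06, SE 0.15, adjusted p = 7.4e-08) were lower, the last at -0.95 and not called without CBN replicate 1. No co-receptor was called higher and 1 of 14 lower, 2 of 32 effectors higher and none of the 32 lower, with Rhod at log2 fold change 1.93, SE 0.21, adjusted p = 6.6e-11.

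**Figure D3:**
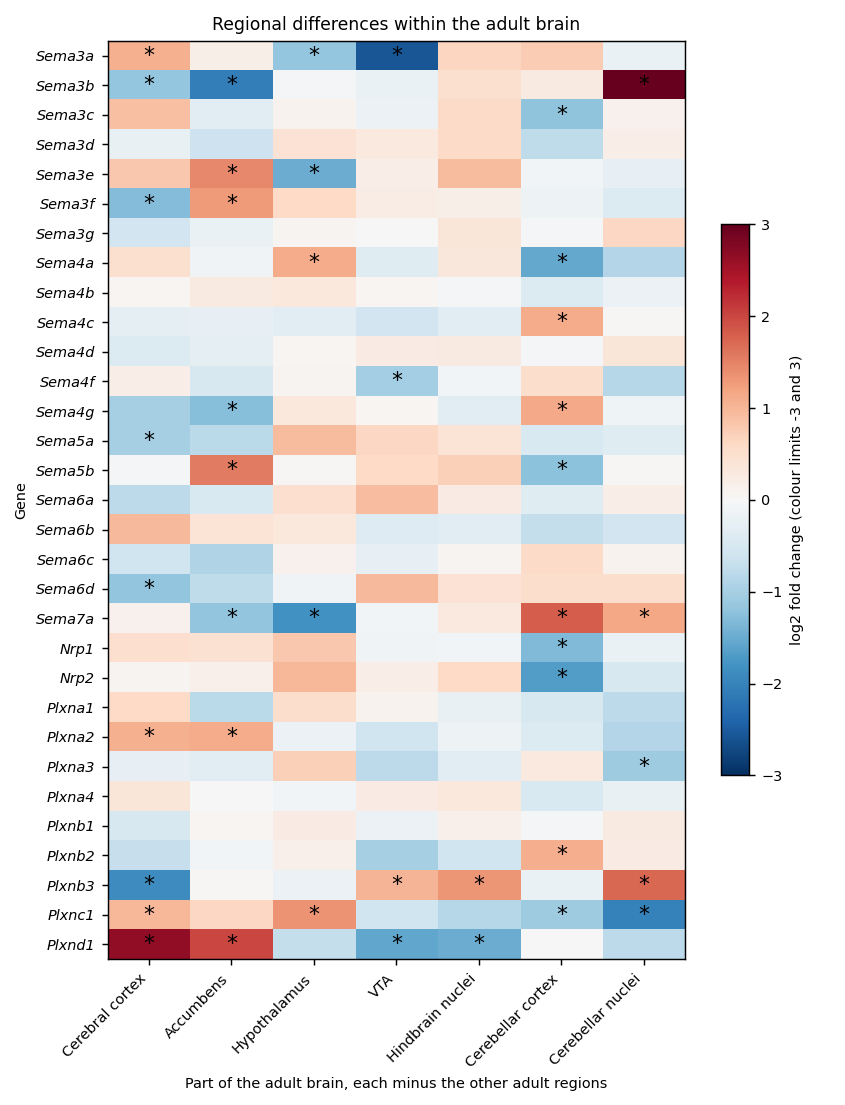
Log2 fold change of each of the 31 genes (rows) in 7 parts of the adult brain (columns), each against the other adult regions, in colour from -3 to 3, with a star where a gene was called. Plxnd1 is called in 4 of the 7 columns, higher in cerebral cortex and ACB and lower in VTA and hindbrain nuclei, and the Sema3b value in cerebellar nuclei (3.26) exceeds the colour limit.

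**Figure D4:**
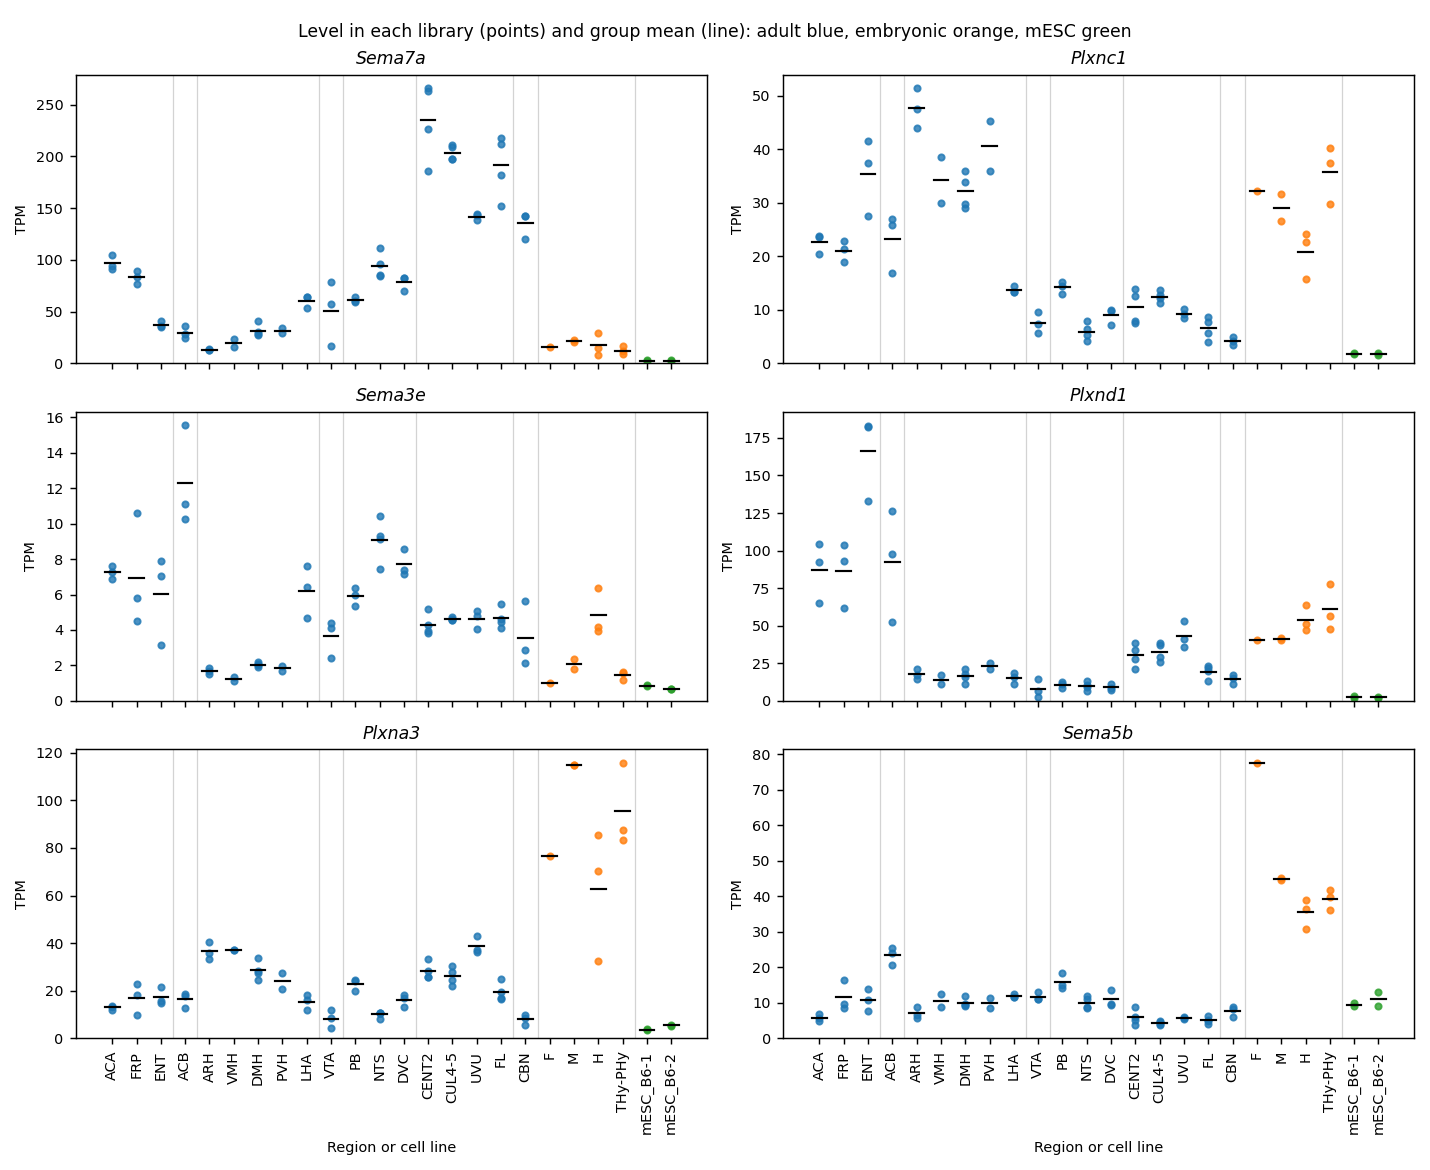
TPM of 6 members in every library (points, with adult in blue, embryonic in orange and mESC in green) and the mean of each group (line), by region. Sema7a and Plxnc1 are high in different adult regions, Sema3e is highest in ACB and Plxnd1 in ENT, and the embryonic points of Sema5b, from 30.8 to 77.6 TPM, lie above all adult points.

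Ligands and their receptors were compared across the 18 adult region means as a description, since regions share cell types and animals. Over all 465 pairs of members Pearson's r had a median of 0.08, and over 13 known ligand and receptor pairs a median of -0.05, with 6 above 0. Sema4c and Plxnb2 had the highest value of the 13 (r = 0.87) and Sema7a and Plxnc1 the lowest (r = -0.76). In between, Sema3e and Plxnd1 stood at 0.35, Sema3f and Nrp2 at 0.18, Sema3a and Nrp1 at -0.31 and Sema6a and Plxna2 at -0.59. The highest value of any pair was that of Plxnb3 and Sema4d (r = 0.89) and the lowest that of Nrp2 and Sema7a (r = -0.84). With the summed oligodendrocyte markers Plxnb3 had r = 0.98 and Sema4d r = 0.85, and with the choroid plexus markers Sema3b had r = 0.81.

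**Figure D5:**
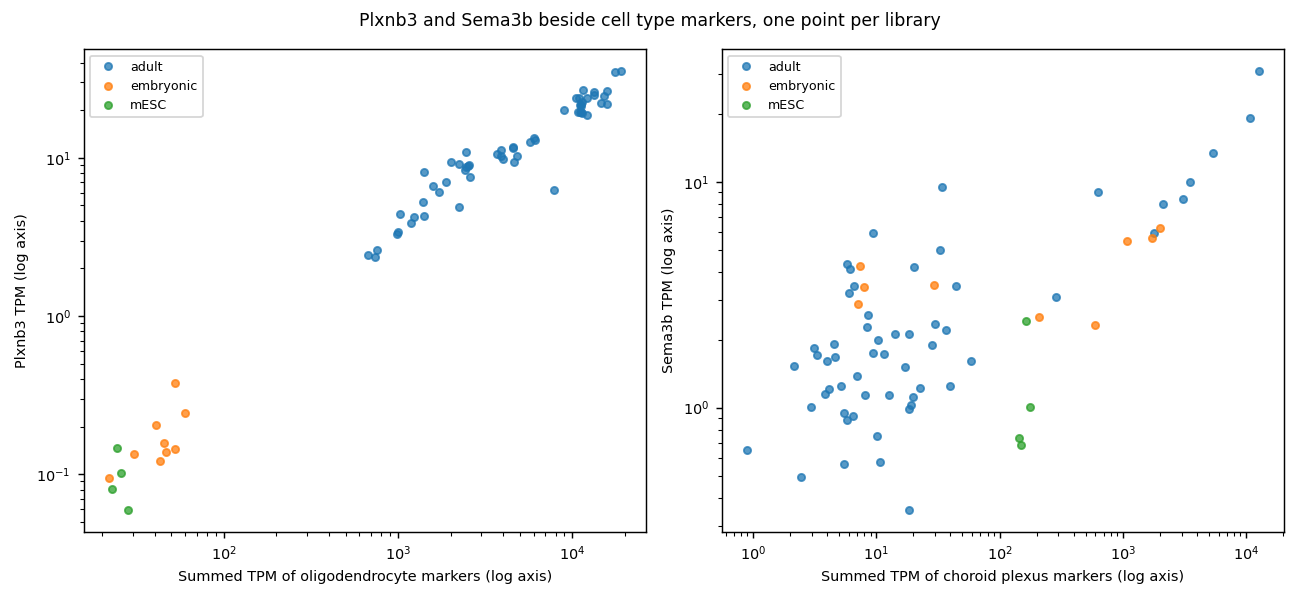
TPM of Plxnb3 against the summed TPM of 9 oligodendrocyte markers (left) and of Sema3b against 5 choroid plexus markers (right), 1 point per library on log axes, with adult libraries in blue, embryonic in orange and mESC in green. Plxnb3 rises with its markers from 2.35 TPM in ACA to 35.2 in CBN, and the 4 adult libraries with the highest choroid plexus sums, 3 of CBN and 1 of NTS, have the highest Sema3b.

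Transcript shares were read as a description, because short single reads separate transcripts only in part. In 20 members at least 2 transcripts each held 10% or more of the gene's TPM, and in 16 by estimated counts. Plxnd1 was the extreme case: a retained-intron fragment of 542 bases and one of 442 bases held 35.3% and 29.5% of its TPM but 5.4% and 3.2% of its counts, and the coding transcript Plxnd1-201 held 32.0% and 90.7%. The TPM of Plxnd1 thus rest in large part on short fragments, while its tests used counts. Plxna1-202 likewise held 63.9% of TPM and 98.0% of counts. Of the coding transcripts of Nrp2, Nrp2-202 had a median share of 24.7% of TPM in adult and 45.5% in embryonic libraries, and Nrp2-205 42.6% and 21.4%, with overlapping ranges. Sema6d-206 had 57.7% and 42.0%, also with overlap.

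Sema4d needs a caution on its level. The deposited gene table leaves out transcript Sema4d-204 (1249 bases), 1 of the transcripts that the annotation places in Sema4d (GRCm38 chr13:51685529-51793747, minus strand) and the files list under Gm15440. That transcript made up a median of 52.3% of the summed TPM of the gene in adult, 25.5% in embryonic and 0.98% in mESC libraries, and 25.3%, 10.5% and 0.32% of the counts, so the TPM of Sema4d given above understate its adult level the most. The tests used counts with this transcript. Without it the stage difference of Sema4d was -1.82 (SE 0.063, adjusted p = 1.7e-31) and the mESC difference 1.31 (SE 0.080, adjusted p = 7.7e-21), and no call of any member changed in the 12 comparisons. Exons of 7 members overlap another gene, most in Plxna1 (10.7% of exonic bases, Gm26811 on the opposite strand) and Sema4c (7.27%, D430040D24Rik on the opposite strand). Whether counting used strand is not given in the sources used here, so reads of both pairs cannot be told apart.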

How the data were processed

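Strand-specific poly(A) libraries were sequenced as short single reads (base calls by CASAVA 1.8.2, per the submitters' processing notes). The authors aligned reads to mouse transcripts with Kallisto and deposited estimated counts per transcript, TPM per transcript and TPM per gene, whose annotation matched GENCODE M21 on GRCm38. The strand option is not given in the sources used here. Estimated counts were summed to genes through that annotation, rounded and tested: 107987 of 109282 transcripts matched, and the rest held 0.418% to 0.767% of the counts of a library. Levels are the deposited gene TPM, as mean ± SD over libraries, and no libraries were identical.

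Groups were taken from the labels, with DMH libraries numbered by their descriptions. A single edgeR 4.0.16 quasi-likelihood fit (R 4.3.3, TMM scaling, filterByExpr, 19980 genes, 70 libraries, 24 groups) gave all 12 comparisons as contrasts of equally weighted region means. A call needed an adjusted p (Benjamini-Hochberg over all genes tested) under 0.05 with a log2 fold change above 1 or below -1. Libraries are pools of punches, or stem cell cultures not said to be separate, so p-values measure the spread between these libraries. Alternatives were DESeq2 1.42.0 with its size factors, no filter on low counts, a fit on the groups compared alone, limma 3.58.1 on log2(TPM + 0.5), with and without a filter on low values, or log2(TPM + 0.1), the replicate number as a block and each library left out. Leaving out H replicate 1 with all steps repeated, alone or with VTA replicate 1, and counting Sema4d without transcript Sema4d-204 were chosen after seeing the data. Scripts were tested on simulated data. Some region markers are not reported here. Members, gene lists and tests were chosen with earlier results of these data known. Every member is named by its highest and lowest region. Per comparison, statistics are given for the 5 largest called changes in each direction, and for pathway genes for the 3 largest called changes between stages and the largest in each adult comparison.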

Additional observations from a re-analysis of the deposited data

Results flagged for a closer look

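Within the 5 regions with 4 libraries, 11 of 155 sets of values (31 members each) held a library whose gap to the nearest other exceeded Dixon's critical value, where chance alone gives about 1 in 20. In CENT2, Sema4c had 18.7 TPM in replicate 2 against 23.8 to 24.6 in the others, and Sema6d had 46.6 TPM in replicate 3 against 62.0 to 64.6. In CUL4-5, Sema6c had 46.0 TPM in replicate 1 against 32.0 to 33.5. In DMH, replicate 2 stood apart for Plxnb3 (12.97 TPM against 9.85 to 10.2), Sema3d (2.25 against 3.08 to 3.14) and Sema5a (20.7 against 23.4 to 23.5), and replicate 1 for Sema3b (4.20 against 1.75 to 2.13). In FL, Sema4b had 8.95 TPM in replicate 1 against 7.24 to 7.41. In NTS, Plxna3 had 8.27 TPM in replicate 2 against 10.6 to 10.8. Replicate 1 of NTS was high for Plxnb2 (50.1 TPM against 23.7 to 27.4) and Sema3b (19.1 against 0.879 to 3.47), and choroid plexus markers summed to 10668 TPM in that library. Their part in either value was not tested.

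The stage contrast differed between hypothalamus and hindbrain for 4 members by the test of the difference itself (edgeR): Plxnb3 (log2 difference 2.03), Sema3d (-1.69), Sema3g (1.01) and Sema5b (1.06). The first of these kept its call without H replicate 1 and the other 3 did not.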

How the results depend on the processing

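No direction reversed among 913 values of 83 named member results under 11 alternatives, and 50 lost their call. None of 5810 values with a library left out reversed, and 71 lost their call, of which 31 were of Sema5a and 23 of Plxnc1 in cortex. The named results were picked as the largest called changes. Each library was left out in every comparison, also where it lay outside the groups compared, with the filter and dispersions of the full fit kept. A reversal was therefore unlikely from the start. The number of members with a different stage contrast in hypothalamus and hindbrain fell from 4 to 2 without H replicate 1, and also to 2 without H replicate 1 and VTA replicate 1. In VTA it rose from 4 to 7 with limma on log2(TPM + 0.1) and on log2(TPM + 0.5) with and without a filter on low values, where the median of all genes moved by -0.40 on log2(TPM + 0.5), and the cause was not tested further. With single libraries left out the number of members called ranged from 16 to 18 between stages, 17 to 20 in hypothalamus, 18 to 22 in hindbrain, 2 to 7 for the difference of both (2 without H replicate 1, 7 without H replicate 3), 28 to 29 in mESC, and 3 to 6 in VTA. In cortex it ranged from 7 to 10, in ACB from 8 to 9, in adult hypothalamus from 5 to 6 and in CBN from 4 to 6. Hindbrain nuclei stayed at 2 and cerebellar cortex at 10.

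The labels do not say whether a replicate number marks shared animals or a batch. Deviations of libraries with the same number had a median r of 0.01 over 669 pairs (-0.51 to 0.51), and those with another number -0.005 over 1603 pairs. Of 69 libraries 26 correlated best with their own number, and the number to be had by chance was not computed. With the replicate number as a block the number of members called was 6 in place of 5 in adult hypothalamus, where Nrp2 was added, and as before in the other comparisons, although in cortex Sema5a was exchanged for Sema4g.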
